A study of Mus musculus with 8 samples.

Results

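Adenylyl cyclases Adcy1 to Adcy9, the 9 membrane-bound enzymes that make cyclic AMP, were followed in mouse colon, with 4 tumors set against 4 normals, from adult mice of the strain C57BL/6. The family was chosen by the large rise of Adcy8 in these same tumors, so every tumor against normal difference of a member is a description and carries no test. All 9 genes were on the array, among 27591 named genes, through 16 probes, and all 16 probes passed the filter on dim probes. The tumors were labelled as colon adenoma from mice with the genotype Tcf4Het ApcHet, and the normals as colon from TCF4WT ApcHet mice. Tissue state and Tcf4 genotype therefore cannot be told apart, and the mutant Apc copy was shared by both groups. The protocol gave the distal 2.5 cm of colon from littermates as the source of RNA, so each sample mixes epithelium, stroma, muscle and immune cells.

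Adenylyl cyclases turn ATP into cyclic AMP, which opens ion channels and activates protein kinase A (PKA) and the Epac exchange factors. All are switched on by the stimulatory G protein Gs, and the isoforms differ in what else they respond to. Adcy1, Adcy3 and Adcy8 are stimulated by calcium and calmodulin, Adcy2, Adcy4 and Adcy7 by the beta-gamma dimers of G proteins, Adcy5 and Adcy6 are inhibited by calcium and by Gi, and Adcy9 is the isoform least sensitive to forskolin. In colon, cyclic AMP is known for driving chloride and fluid secretion by the epithelium, and Adcy8 is best known from brain and from calcium-linked signalling in secretory cells.

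Values are the log2 intensities of the authors' deposited table, with 1 column per sample. Differences are tumor minus normal on that scale, with the SE of the limma fit, and errors of levels are SD over n = 4. A value under 5.59 was taken as background (the limit is described with the processing), and levels of different probes are not set against each other. Normal 3 stood apart: over all genes tested its correlations ran from 0.947 to 0.965 against tumors but from 0.872 to 0.941 against its own group, whose remaining members reached 0.938 to 0.987 among themselves. Differences of the members' brightest probes, and the counts over all pathway genes, are therefore given with and without normal 3. Of the 8 columns, 4 matched a scanner file exactly and 1 of those 4 matched the file of its own sample, so the scanner files give a separate account of which array is which. The labelled tissue held its markers: all 9 general epithelial markers were above the limit, with a mean of 16.60 to 16.83 in the normals and 16.13 to 16.34 in the tumors.

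Adcy8 was high in all 4 tumors and low in 3 of the 4 normals. The enzyme couples calcium entry to cyclic AMP production. Its value was 6.06 in normal 1, 6.24 in normal 2, 11.79 in normal 3 and 4.96 in normal 4, and 12.75, 13.18, 12.64 and 12.21 in tumors 1 to 4. The groups did not overlap, but normal 3 lay 6.03 above the mean of the other normals and just under the lowest tumor. The mean was 7.26 ± 3.07 (SD, n = 4) in the normals and 12.69 ± 0.40 in the tumors, a difference of 5.43 ± 1.36 (SE). Without normal 3 the normal mean was 5.75 ± 0.69 (n = 3) and the difference 6.94. Between samples of the same number the difference was 6.69, 6.94, 0.85 and 7.25. Normal 4 lay under the limit, and normal 1 lay under the 7.70 that its own column's background reached, so both are bounded by background and no fold is given. With values under the limit set to it, normal 1 kept its value and the difference was 5.28.

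A single probe measured Adcy8, at chr15:64529050-64529109 on the minus strand of mm8. Each of the 2 slides held traceable columns of both groups: tumor 1 and normal 1 on slide 1, and tumor 2 and normal 2 on slide 2. The differences within slides, 6.69 and 6.94, are thus the same-number differences given above and add no separate check. Normal 3, the high normal, was not traced to a slide.

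**Figure D1:**
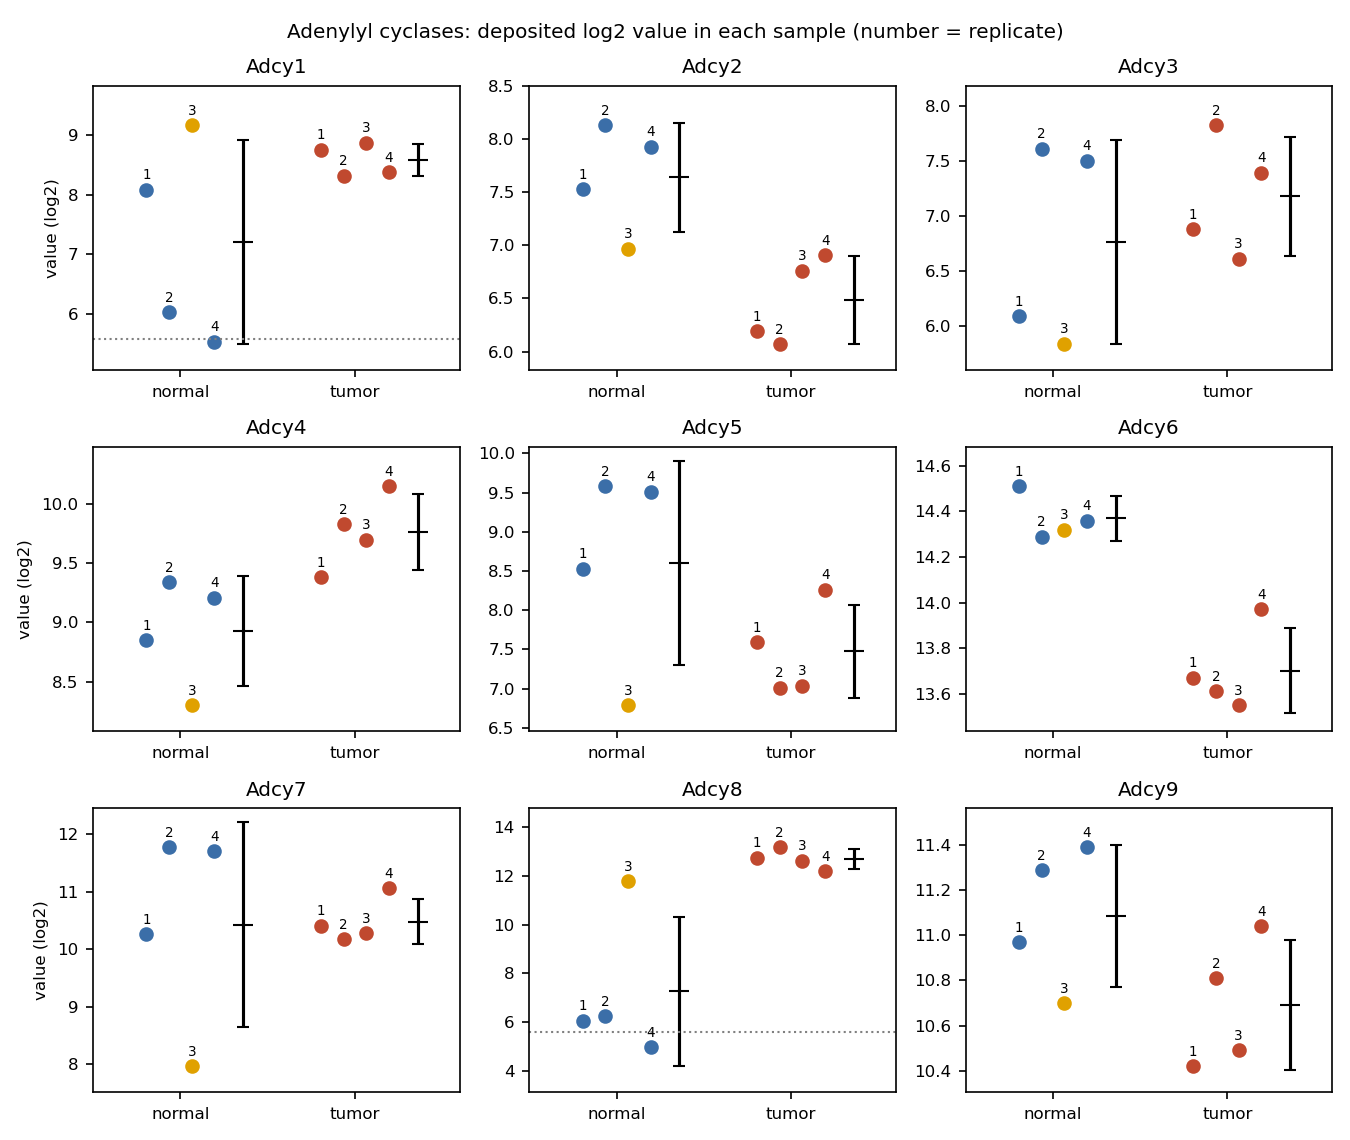
Deposited log2 value of the brightest probe of each adenylyl cyclase in the 4 normal and 4 tumor samples, with the replicate number above each point, normal 3 in yellow, and the mean with SD bars beside each group; each panel has its own y axis, and the dotted line is the background limit of 5.59 where it falls within the panel. Adcy8 lies between 12.21 and 13.18 in the tumors and at 11.79 in normal 3, while normals 1, 2 and 4 lie between 4.96 and 6.24, and Adcy6 is lower in each tumor than in each normal.

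Adcy1, the calcium-stimulated isoform of neurons, was also higher in the tumor mean. Its brightest probe read 8.08, 6.03, 9.16 and 5.54 in normals 1 to 4 and 8.75, 8.32, 8.87 and 8.38 in tumors 1 to 4. Normal 3 was the highest of all 8 samples there, so the groups overlapped, while the other 3 normals lay under every tumor. The difference was 1.38 ± 0.77 (SE), and 2.03 without normal 3. Normal 4 lay under the limit, and the scanner files matching normals 1 and 2 had this probe not well above background, so no fold is given. The other 3 Adcy1 probes differed by 2.26 ± 0.61, 1.19 ± 0.58 and 0.93 ± 0.44, in the same direction. At the probe with the difference of 2.26 the groups did not overlap even with normal 3.

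Adcy3, the isoform of olfactory signalling and primary cilia, had overlapping groups. It read 6.09, 7.61, 5.84 and 7.50 in normals 1 to 4 and 6.88, 7.82, 6.61 and 7.39 in tumors 1 to 4. Samples 2 and 4 were the high ones in both groups, and the difference of 0.42 ± 0.48 was 0.11 without normal 3. Over the calcium-stimulated isoforms, 7 of 7 probes had the higher mean in the tumors, of which 4 measure Adcy1 and 1 measures Adcy8, the gene that chose the family.

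Of the calcium-inhibited isoforms, Adcy6 was lower in every tumor and Adcy5 overlapped. Adcy6, a widely expressed isoform of epithelia, read 14.51, 14.29, 14.32 and 14.36 in normals 1 to 4 and 13.67, 13.61, 13.55 and 13.97 in tumors 1 to 4. Every tumor lay under every normal, and normal 3 lay within the other normals. The difference was -0.67 ± 0.14, or 1.59-fold lower in the tumors, and -0.69 without normal 3. Adcy6 was the member with the tightest values: its SD was 0.09 in the normals and 0.18 in the tumors. It was measured by a single probe, whose mm8 coordinates span only 15 bases.

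Adcy5, the isoform best known from heart and striatum, read 8.53, 9.58, 6.79 and 9.51 in normals 1 to 4 and 7.59, 7.01, 7.04 and 8.26 in tumors 1 to 4. The groups overlapped through normal 3, which was the lowest of all 8 samples. The difference was -1.13 ± 0.64, and -1.74 without normal 3, where the groups no longer overlapped. Its other probe differed by -1.47 ± 0.87 and by -2.27 without normal 3. All 3 probes of Adcy5 and Adcy6 had the lower mean in the tumors.

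The isoforms stimulated by beta-gamma dimers did not share a direction. Adcy2 read 7.53, 8.13, 6.97 and 7.93 in normals 1 to 4 and 6.19, 6.07, 6.76 and 6.91 in tumors 1 to 4. All tumors lay under all normals, with normal 3 just above tumor 4. The difference was -1.16 ± 0.31, and -1.38 without normal 3. Normal 1 lay under the 7.70 of its own column's background, and its matching scanner file had this probe not well above background, so no fold is given. The second Adcy2 probe differed by -1.56 ± 0.49, with overlap through normal 3, which read 6.08 there.

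Adcy4, the isoform described in blood vessel endothelium, read 8.85, 9.34, 8.30 and 9.21 in normals 1 to 4 and 9.38, 9.83, 9.70 and 10.15 in tumors 1 to 4. The groups did not overlap, although normal 2 and tumor 1 lay close together. The difference was 0.84 ± 0.27, or 1.78-fold higher, and 0.63, or 1.55-fold, without normal 3. The 8 endothelial markers had list means of 9.39 to 10.28 in the normals and 10.25 to 10.74 in the tumors, all 8 were above the limit, and 1 of them rose. Their part in the Adcy4 difference was not tested.

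Adcy7, an isoform of blood and immune cells, read 10.26, 11.77, 7.97 and 11.70 in normals 1 to 4 and 10.41, 10.18, 10.28 and 11.06 in tumors 1 to 4. The tumors lay inside the range of the normals, which ran from normal 3 to normal 2. The brightest probe differed by 0.06 ± 0.81 and by -0.76 without normal 3. The other probe differed by -1.02 ± 1.0 and by -2.03 without normal 3. It was the 1 member whose probes differed in sign, and leaving out normal 3 gave both the same sign.

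Adcy9, the isoform least sensitive to forskolin, read 10.97, 11.29, 10.70 and 11.39 in normals 1 to 4 and 10.42, 10.81, 10.49 and 11.04 in tumors 1 to 4. The difference was -0.40 ± 0.22, with overlapping groups, and -0.53 without normal 3, where they still overlapped. Each same-numbered pair had the lower value in the tumor, with differences from -0.55 to -0.20.

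Counted over the brightest probes, 5 members had the higher mean in the tumors and 4 the lower. The groups did not overlap for 2 members with higher tumors (Adcy4 and Adcy8) and 2 with lower tumors (Adcy2 and Adcy6). Over all genes tested, 11.9% did not overlap with the tumors higher and 11.9% with the tumors lower. With the limma fit at an adjusted p threshold of 0.05, Adcy8 was called higher, among 7.00% of all genes, and Adcy2 and Adcy6 lower, among 7.54%; either direction made up 14.5%. With the replicate number as a block no member was called, against 8.80% of all genes. Without normal 3, Adcy1, Adcy4 and Adcy8 were called higher and Adcy2, Adcy5 and Adcy6 lower, when 51.5% of all genes were called, 31.7% higher and 19.8% lower. No member was called without normal 1, 2 or 4 or without tumor 1, 2 or 3, and Adcy6 alone was called without tumor 4 and, in all samples, without the filter on dim probes. These calls use the contrast that chose the family, and nothing is read from their number.

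**Figure D2:**
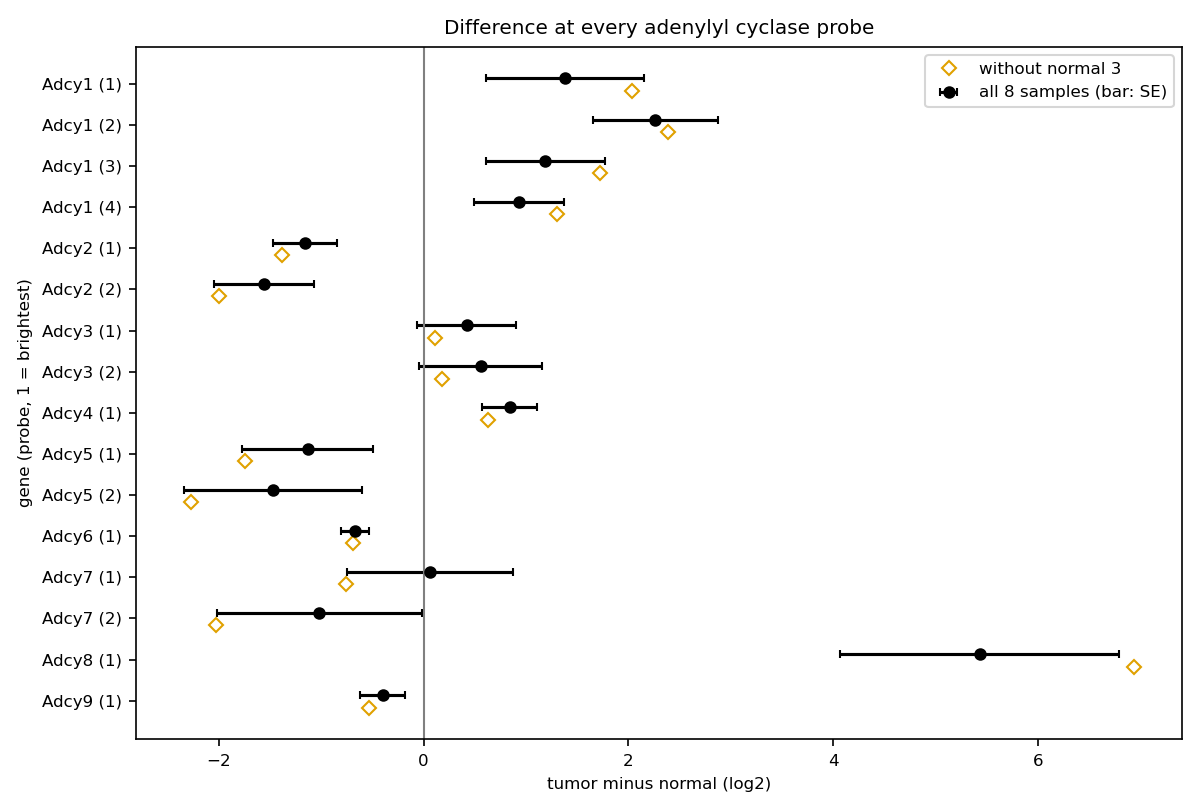
Tumor minus normal difference on the log2 scale at each of the 16 adenylyl cyclase probes, with all samples (SE bars) and without normal 3; probes of a gene are numbered by brightness. The 7 probes of Adcy1, Adcy3 and Adcy8 lie to the right of 0 and the 3 probes of Adcy5 and Adcy6 to the left, and the second Adcy7 probe has the other sign than the first.

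Levels of normal 3 set it apart at many members, and other tissue markers moved with it. Adcy3, Adcy4, Adcy5 and Adcy7 were lowest in normal 3 of all samples. So were the smooth muscle markers, at a list mean of 13.45, and the fibroblast markers, at 11.40. The endothelial (9.39), B and plasma cell (9.66) and macrophage (10.25) lists were lowest there too. The smooth muscle mean was 14.42 to 15.69 in normals 1, 2 and 4 and 13.78 to 14.88 in tumors, and the fibroblast mean 12.57 to 14.01 and 13.14 to 14.24. The small intestine and Paneth cell markers, with 12 of 12 above the limit and 2 falling, were highest in normal 3, at 12.72, against 10.95 to 11.72 in normals 1, 2 and 4 and 10.69 to 11.96 in tumors. All 9 smooth muscle and all 8 fibroblast markers were above the limit. Enteric glia markers had a mean of 8.52 in normal 3, 9.60 to 9.79 in normals 1, 2 and 4 and 8.33 to 9.07 in tumors. Markers of interstitial cells of Cajal had 11.26, 12.18 to 12.42 and 10.41 to 11.40 in the same order. All 6 glia and all 3 Cajal cell markers were above the limit, and 1 of each list fell. The part of these lists in the levels of the members was not tested, and with bulk tissue fewer cells of a type and less RNA per cell cannot be told apart.

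Neutrophil, T and NK cell and tuft cell markers followed the order of Adcy8 in part. The neutrophil list mean was 7.06, 7.68 and 6.66 in normals 1, 2 and 4, 9.62 in normal 3 and 10.19 to 11.98 in the tumors. On that list 11 of 12 were above the limit, Ngp under it, and 7 rose. T and NK cell markers had means of 8.24 to 8.97 in normals 1, 2 and 4, 9.25 in normal 3 and 9.39 to 9.92 in the tumors. Of these, 9 of 10 were above the limit, Ncr1 under it, and 3 rose. Macrophage markers had means of 10.25 to 11.23 in the normals, lowest in normal 3, and 12.08 to 12.27 in the tumors, with 12 of 12 above the limit and 8 rising. Tuft cell markers had means of 7.88 to 8.37 in normals 1, 2 and 4, 9.02 in normal 3 and 9.14 to 9.43 in the tumors, with 8 of 9 above the limit, Il25 under it, and 1 rising. Enteroendocrine markers had means of 13.45 to 14.00 in the normals and 12.33 to 13.15 in the tumors, with 9 of 10 above the limit, Neurod1 under it, and 4 falling. Absorptive colonocyte markers, with 10 of 10 above the limit and 7 falling, had means of 15.27 to 15.86 in the normals and 12.84 to 14.23 in the tumors. The part of any of these lists in the levels of Adcy8 or Adcy6 was not tested.

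The genes whose profile over the 8 samples was most like that of Adcy8 also had normal 3 near the tumors. Among 17453 genes with a symbol, the highest Pearson correlations with Adcy8 were those of Jaml (0.9983), an adhesion molecule of leukocytes, Wif1 (0.9965), a secreted inhibitor of Wnt ligands, Macc1 (0.9963), a gene named for its link to colon cancer metastasis, Tmem132a (0.9956) and 1700020N18Rik (0.9953). The 8 samples fall into 2 groups, so these correlations describe likeness and carry no p. Wif1 read 8.95, 9.08, 13.65 and 8.23 in normals 1 to 4 and 15.05, 15.72, 15.25 and 14.63 in tumors 1 to 4. Its difference of 5.18 was close to that of Adcy8 in size, whereas Macc1 differed by 0.86. 1700020N18Rik was above the limit in 1 of 4 normals. Among the other members, the correlation with Adcy8 was 0.83 for Adcy1, 0.36 for Adcy4, -0.06 for Adcy3 and between -0.91 (Adcy2) and -0.51 (Adcy7) for the rest.

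**Figure D3:**
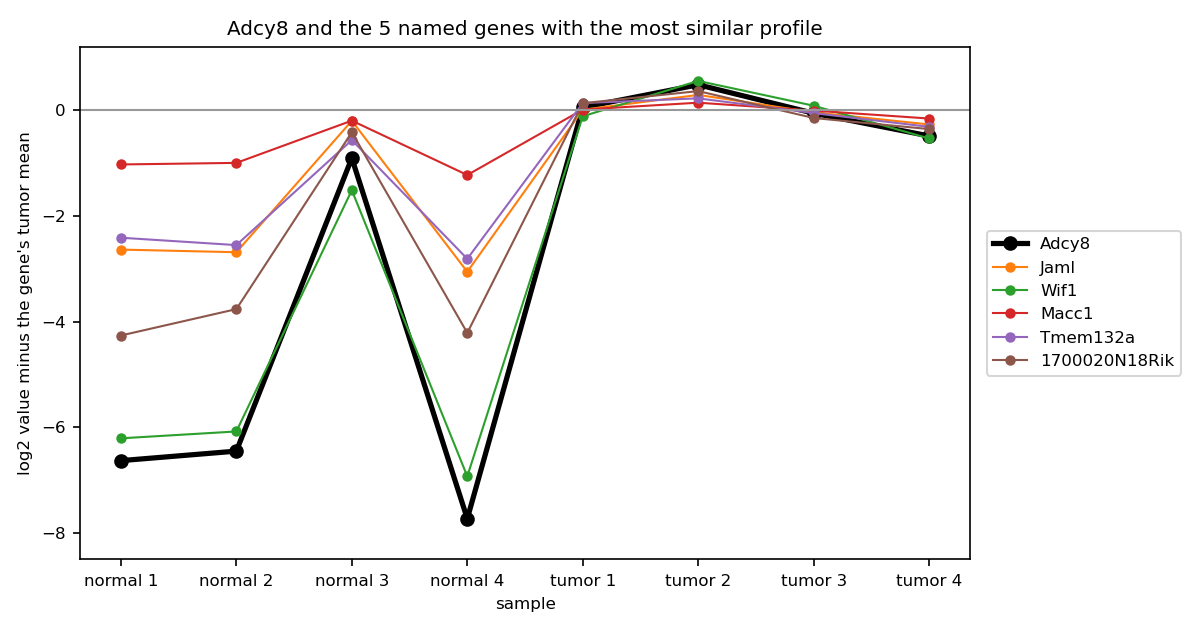
Log2 value minus the gene's tumor mean (y axis) in each sample (x axis) for Adcy8 and the 5 genes most like it by Pearson correlation. Each line is low in normals 1, 2 and 4 and near 0 in the tumors; normal 3 lies close to the tumors, with Adcy8 at -0.91.

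The scanner files gave Adcy8 another spread. Their intensities were taken as log2 minus each array's 75th percentile. Adcy8 read -5.87 and -6.30 in the files that match columns normal 1 and normal 2, the first of them not well above background, and 1.79 and 1.32 in the files that match columns tumor 2 and tumor 1. It read -0.17, -0.04, -0.08 and -0.03 in the 4 files without a matching column, which are filed under normal 1 and tumors 2, 3 and 4. These 4 files thus lay between the matched normals and the matched tumors and close to each other. With every file under its own sample, Adcy8 differed by 2.93 ± 1.82 (SE). Adcy6 read 3.26 and 2.77 in the files of the normal columns, 2.22 and 2.27 in those of the tumor columns, and 2.12 to 2.42 in the 4 others.

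**Figure D4:**
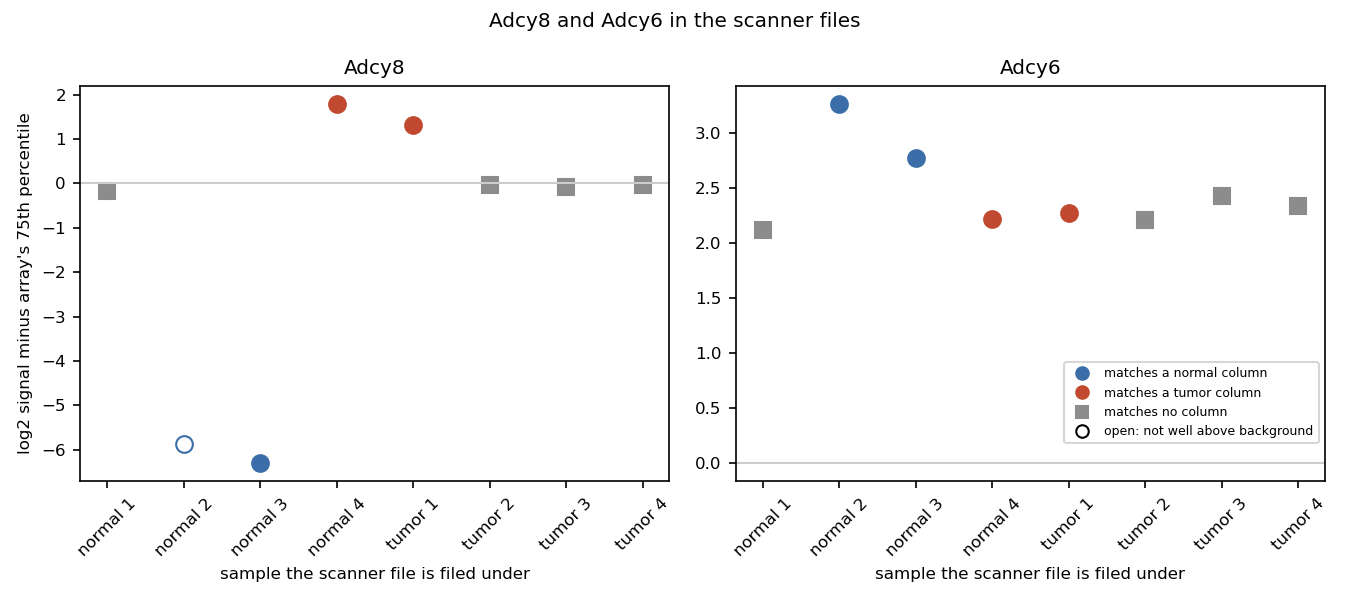
Log2 scanner signal of Adcy8 and Adcy6 minus the 75th percentile of the array (y axis) in each scanner file, named by the sample it is filed under (x axis); colour marks the kind of column a file matches, and the open symbol was not well above background. The 4 files without a column lie between -0.17 and -0.03 for Adcy8, between the files of normal columns and those of tumor columns.

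The promoter table of RefSeq (GRCm38.p6, 300 bases around each start) held 10 promoters for 7 of the 9 members, without Adcy6 and Adcy8. The promoters of Adcy1 and Adcy2 are shown because these members had the highest and the lowest difference among those 7. Capitals mark GGGCGG, the letters of the GC box bound by Sp1, on either strand (CCGCCC on the other). Adcy1 lies at chr11:7063183-7063482 on the plus strand and Adcy2 at chr13:68999492-68999791 on the minus strand.
Adcy1: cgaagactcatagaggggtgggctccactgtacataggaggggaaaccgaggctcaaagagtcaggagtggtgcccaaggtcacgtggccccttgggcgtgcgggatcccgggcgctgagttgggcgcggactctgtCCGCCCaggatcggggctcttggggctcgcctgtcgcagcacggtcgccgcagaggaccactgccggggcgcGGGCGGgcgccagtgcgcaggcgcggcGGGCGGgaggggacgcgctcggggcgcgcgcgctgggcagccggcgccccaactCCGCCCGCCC
Adcy2: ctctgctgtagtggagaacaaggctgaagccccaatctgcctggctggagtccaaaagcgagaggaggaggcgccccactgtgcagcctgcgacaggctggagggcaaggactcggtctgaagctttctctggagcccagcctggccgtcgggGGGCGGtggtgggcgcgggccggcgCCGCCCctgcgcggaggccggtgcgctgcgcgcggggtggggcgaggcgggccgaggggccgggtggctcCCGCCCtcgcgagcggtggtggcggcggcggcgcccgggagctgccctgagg
Both are rich in CpG, with 37 CpG pairs and 74% GC in Adcy1 and 32 and 75% in Adcy2, against medians of 7 and 52.7% over 32851 promoters of this length. GGGCGG stood in 6 of the 10 member promoters, 1 for each of the 7 members but Adcy4, and in 35.7% of all promoters. The letters of TCF and LEF sites (CTTTGAA as well as CTTTGAT and, likewise, CTTTGTA as well as CTTTGTT, on either strand) stood in 2 of the 10, of Adcy3 and Adcy7, and in 16.9% of all promoters. The cyclic AMP response element TGACGTCA stood in 0 of the 10 and in 1.79% of all. A match is a description of letters in the window, and its absence says nothing about a factor.

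Around Adcy8 on chromosome 15, its nearest protein-coding neighbours in RefSeq order did not share its size of difference. Cyrib, a regulator of Rac1, rose by 0.52 ± 0.14 (limma adjusted p = 0.0441), and Asap1, an Arf GTPase-activating protein, fell by 0.86 ± 0.19 (limma adjusted p = 0.0271). On the other side Efr3a, a membrane anchor of a lipid kinase, differed by -0.36 ± 0.19 (limma adjusted p = 0.205) and Oc90, an inner ear protein, by 1.27 ± 0.85 (limma adjusted p = 0.281). Neither call held with the replicate block (limma adjusted p = 0.063 for Cyrib and 0.0525 for Asap1). Leaving out 1 sample at a time, Cyrib was still called in 1 of 8 fits, that without normal 3, and Asap1 in 2 of 8. Without normal 3 all 4 neighbours passed, in the fit that called 51.5% of all genes.

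The rest of the cyclic AMP pathway was followed through 188 listed genes, of which 161 were tested. By the limma fit, 10 rose and 16 fell, which is 16.1% against 14.5% of all genes, and the median difference was 0.29 against 0.15 over all genes. With the replicate block 5 rose and 11 fell, where 8.80% of all genes were called. Without normal 3, 57 rose and 34 fell, where 31.7% of all genes were called higher and 19.8% lower. All 26 calls were lost without tumor 3; 2 were still called without normal 4, 5 without normal 1, 6 each without normal 2 or tumor 2, 9 without tumor 1, 17 without tumor 4 and 26 without normal 3. Crem and Ptgs2 kept their call in 7 of 8 such fits and had a limma adjusted p of 0.0553 without tumor 3.

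Upstream of the enzymes, none of the 12 G protein genes passed the test by limma, with 3 at an unadjusted p under 0.05. Over all genes, 7011 of the 21634 tested had an unadjusted limma p under 0.05. None of 27 Gs-coupled receptors passed either, with 3 at an unadjusted p under 0.05, and their median difference was 0.94. Single receptors ran from -0.63 (Glp2r) to 1.75 (Gcgr). Their levels against background are not given, so no change in Gs input is read from the median. Without normal 3, 17 of these receptors rose and 2 fell, in the fit that called 31.7% of all genes higher and 19.8% lower. Of 23 Gi-coupled receptors, 1 rose and 2 fell (13%, against 14.5% of all genes), and their median difference was 0.75. Without normal 3, 12 of them rose and 3 fell, so the upward shift was not particular to the Gs list. Hcar2, the receptor for butyrate and niacin, rose from 6.82 ± 0.49 (SD, n = 4) to 9.54 ± 0.63, a difference of 2.72 ± 0.37 (SE; limma adjusted p = 0.0146). In normal 1 it read 6.27, under the 7.70 of that column's background. Ptger3, a prostaglandin E2 receptor that couples to Gi, fell by 2.02 ± 0.35 (limma adjusted p = 0.0189), from 12.00 ± 0.19 to 9.98 ± 0.74. Npy1r, a neuropeptide Y receptor, fell by 1.65 ± 0.39 (limma adjusted p = 0.0343; 0.0558 with the replicate block), with overlapping groups.

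Other regulators of the enzymes and the soluble adenylyl cyclase Adcy10 made up a list of 14 genes. Of these, 1 rose (Rgs2, a brake on G protein signalling) and 3 fell, or 28.6% against 14.5% of all genes. Adcy10 differed by 1.69 and did not pass (limma adjusted p = 0.136). Rgs2 differed by 0.59 ± 0.16 (limma adjusted p = 0.0463; 0.0796 with the replicate block). Prkcd, a protein kinase C isoform, fell by 1.37 ± 0.25 (limma adjusted p = 0.0205). Stim1, the calcium sensor of store-operated entry to which Adcy8 is known to respond, fell by 0.92 ± 0.24 (limma adjusted p = 0.044; 0.059 with the replicate block). Snx13 fell by 0.69 ± 0.17 (limma adjusted p = 0.0343; 0.0525 with the block).

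Of the enzymes that break cyclic AMP down, 3 of 16 phosphodiesterases fell and none rose (18.8%, against 14.5% of all genes). Unadjusted, 7 had a limma p under 0.05, as did 7011 of the 21634 genes tested. Pde3a, which breaks down cyclic AMP and is inhibited by cyclic GMP, fell by 1.31 ± 0.19 (limma adjusted p = 0.0149). Pde8b fell by 1.46 ± 0.36 (limma adjusted p = 0.0387) and Pde7a by 0.85 ± 0.17 (limma adjusted p = 0.023), both specific for cyclic AMP. The 3 kept their call with the replicate block.

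Downstream, 1 of 9 PKA genes rose and 2 fell (33.3%, against 14.5% of all genes). Prkar2a, a regulatory subunit, fell by 1.40 ± 0.38 (limma adjusted p = 0.0473), Prkacb, a catalytic subunit, fell by 0.94 ± 0.16 (limma adjusted p = 0.0176), and Prkar1b, another regulatory subunit, rose by 0.68 ± 0.14 (limma adjusted p = 0.0248; 0.05 with the replicate block, not called). Of 12 A-kinase anchoring proteins, which hold PKA at its sites of action, Akap1 fell by 0.81 ± 0.21 (limma adjusted p = 0.042) and Akap7 by 0.75 ± 0.17 (limma adjusted p = 0.0317; 0.0611 with the block). Of 11 other effectors, Rapgef3 (Epac1) rose by 0.58 ± 0.16 (limma adjusted p = 0.0488; 0.0905 with the block). Called were 16.7% of the anchoring proteins and 9.09% of the other effectors, against 14.5% of all genes.

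In the CREB family and its coactivators, 2 of 16 rose and none fell (12.5%, against 14.5% of all genes). Crem, whose short form is induced by cyclic AMP, rose from 10.39 ± 0.29 (SD, n = 4) to 12.10 ± 0.18, by 1.70 ± 0.18 (limma adjusted p = 0.0112). Creb3l2, a membrane-bound member, rose by 0.84 ± 0.23 (limma adjusted p = 0.0491). Of 17 genes known to respond to cyclic AMP, 5 rose and 1 fell (35.3%, against 14.5% of all genes). Crem and Rgs2 are also counted in lists above. Among those that did not pass, Bdnf differed by 2.12 (limma adjusted p = 0.0714) and Fos by -1.08 (limma adjusted p = 0.0682). Unadjusted, 12 had a limma p under 0.05, against 7011 of the 21634 genes tested. Ptgs2, the inducible cyclooxygenase, rose by 3.49 ± 0.40 (limma adjusted p = 0.0123). In normal 1 it read 6.74, under the 7.70 of that column's background, so no fold is given. Ppargc1a, a coactivator of mitochondrial genes, fell by 1.48 ± 0.21 (limma adjusted p = 0.0149). Crem, Nr4a1, Nr4a2 and Rgs2 were the others that rose. With the replicate block Rgs2 and Nr4a2 (limma adjusted p = 0.0622) no longer passed.

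Of 9 genes of cyclic AMP-driven ion transport and export, 1 rose and 3 fell (44.4%, against 14.5% of all genes). Slc26a3, the chloride-bicarbonate exchanger of surface colonocytes, fell by 2.51 ± 0.46 (limma adjusted p = 0.0201), from 16.25 ± 0.28 (SD, n = 4) to 13.74 ± 0.98. Slc9a3r1, the scaffold NHERF1, fell by 1.23 ± 0.23 (limma adjusted p = 0.0204), and Cftr, the chloride channel that PKA opens, fell by 1.19 ± 0.31 (limma adjusted p = 0.0431; 0.0784 with the replicate block). Abcc4, which pumps cyclic AMP out of cells, rose by 1.47 ± 0.29 (limma adjusted p = 0.0232; 0.053 with the replicate block). In the sister family of guanylyl cyclases and natriuretic peptide receptors, 1 of 6 tested genes passed (16.7%, against 14.5% of all genes). This was Gucy2c, the guanylin receptor of gut epithelium, which fell by 1.13 ± 0.21 (limma adjusted p = 0.0201). Absorptive colonocyte markers, 7 of 10 of which fell as given with the markers, moved the same way as Slc9a3r1 and Gucy2c. Their part was not tested, and Slc26a3 is itself on that marker list.

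**Figure D5:**
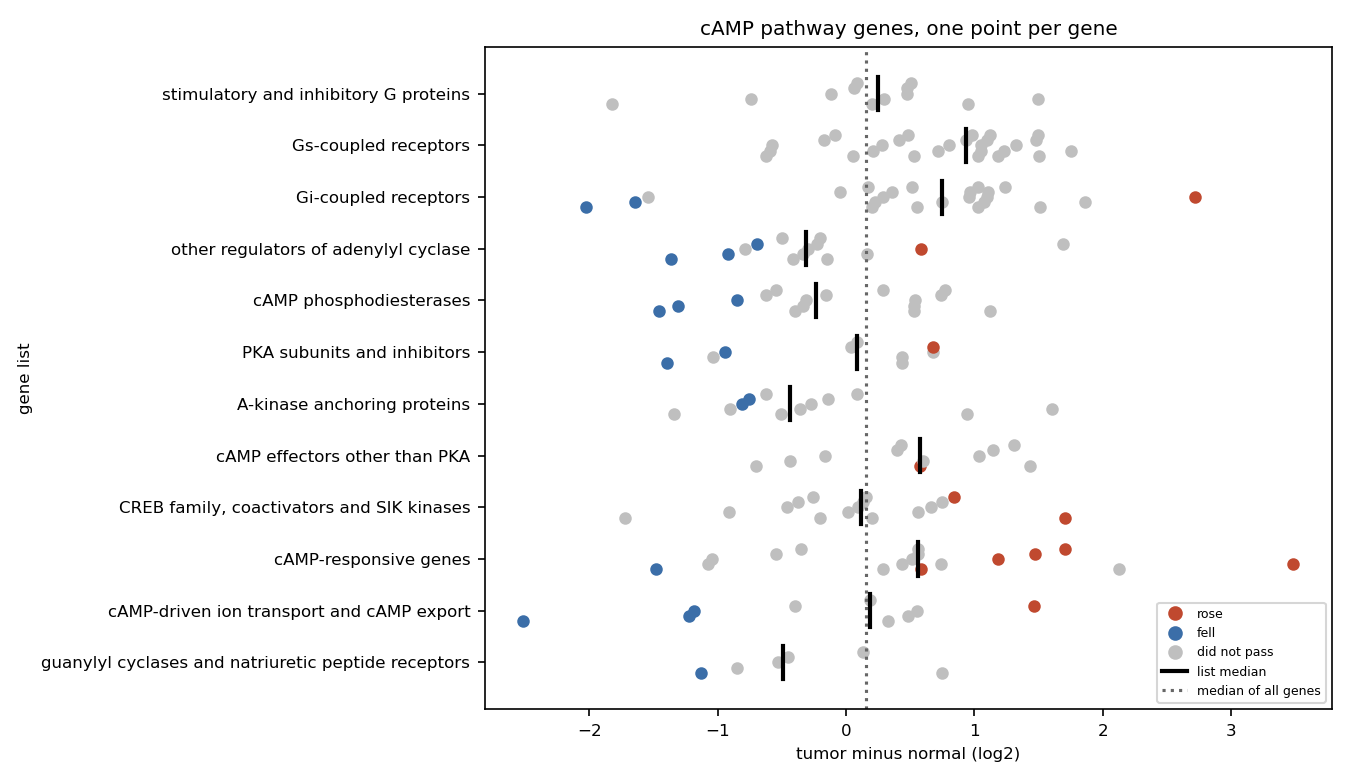
Tumor minus normal difference (log2, x axis) of each tested gene in the cyclic AMP pathway lists and the guanylyl cyclase list (y axis), coloured by whether it rose, fell or did not pass the limma test at an adjusted p of 0.05, with each list's median and the median of all genes at 0.15. The Gs-coupled receptors have a median of 0.94 with no gene past the threshold, and the Gi-coupled receptors have a median of 0.75. The phosphodiesterases have 3 that fell and none that rose.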

How the data were processed

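The authors' deposited value table holds log2 values, 1 column per sample. They were taken as log2 because they follow the log2 scanner intensity in the 4 traced columns. The column of normal 1 has the median 8.51 and the 75th percentile 11.40. Whether the columns were quantile-normalised to each other was not tested. Scanner files hold 1-colour Agilent intensity values with mm8 probe coordinates and came from Feature Extraction 9.5.1.1 per the file headers, while the submitters' processing notes name 10.1.1.1. Scanner files flagged 55.6% to 82.8% of probes as well above background.

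Members and lists were chosen with earlier results of these data known. The table was used with each column under its label. A probe was kept at 5.59 or above on 4 of 8 arrays. To set that limit, the 95th percentile of the probes without the scanner's well-above-background flag was taken in each traced column, and then the median of these. This kept 31871 of 41174 probes and 21634 genes, each by its brightest probe. Names came through RefSeq GRCm38.p6 (24496 probes by accession, 6234 by symbol, 2386 by synonym), with the file's own name left on 8058.

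The test of tumor against normal was that of limma 3.58.1 (R 4.3.3; lmFit, eBayes, 2-sided, Benjamini-Hochberg over all genes, threshold 0.05), tested on simulated data. Deviations of same-numbered samples correlated at 0.239, 0.356, 0.534 and 0.362. Tumor 1 correlated more highly with normal 3, at 0.279, and tumor 4 with normal 2, at 0.38. The protocol speaks of littermates without tying numbers to litters, and these correlations do not settle a pairing. The replicate block therefore rests on the sample numbers alone. Nothing in the labels says how many animals a sample pools, so p-values measure the spread between these samples.

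Named were all members, in each pathway list up to 3 called genes with the largest difference, the 5 genes most like Adcy8 and its 4 nearest protein-coding neighbours. Rgs2, Nr4a1, Nr4a2 and Cftr were named after their values were seen. Alternatives were each sample left out, the replicate block, no filter, the mean of probes, median centring, a floor, slides and the scanner files.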

Additional observations from a re-analysis of the deposited data

Results flagged for a closer look

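Within a group of 4, a sample was singled out when its gap to the next sample took up most of the group's range. This happened in 9 of 96 groups tested. Chance flags about 1 in 20 independent groups, but these groups share samples, 6 of the 9 concern normal 3, and Jaml, Wif1 and 1700020N18Rik were chosen for a profile like that of Adcy8. Among the members, normal 1 stood low at an Adcy1 probe, at 4.67, and normal 3 stood low at the second Adcy2 probe, at 6.08. Normal 3 was also the distant sample for Npy1r, at 8.17, and Gucy2c, at 13.41, where it was low, and for Jaml, at 13.53, Wif1, at 13.65, and 1700020N18Rik, at 6.98, where it was high. Slc26a3 was high in normal 4, at 16.67, and Oc90 was high in tumor 3, at 10.45. Adcy8 also gave a signal in scanner files that no comparison of the value table uses. Relative to the array's 75th percentile it read -0.17 in the unmatched file under normal 1, -0.04 under tumor 2, -0.08 under tumor 3 and -0.03 under tumor 4, above the -5.87 and -6.30 of the files matching normal columns.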

How the results depend on the processing

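The difference of Adcy8 ran from 4.67 to 6.94 with a sample left out. Its groups did not overlap, so leaving out a sample could not change its direction. With the scanner files as filed it was 2.93. Over all genes 3147 were called, 1903 with the replicate block, 21 (without tumor 3) to 11136 (without normal 3) with a sample left out, and 0 with the scanner files by limma either as filed (409 at an unadjusted p under 0.05) or with normexp and quantile (512). Of the cyclic AMP pathway, 26 were called, 16 with the replicate block, 0 to 91 with a sample left out and 0 with the scanner files. Of the 4 neighbours of Adcy8, 2 were called, 0 with the replicate block, 0 to 4 with a sample left out, 1 without the filter, 0 with the mean of probes and 0 with the scanner files. The replicate block changed no other call than those given with the results and those of Macc1, Tmem132a and 1700020N18Rik, which no longer passed. With the scanner files as filed the sign changed for Hcar2 (-0.31), Pde8b (0.45), Akap7 (0.26), Rapgef3 (-0.06), Abcc4 (-0.24), Slc9a3r1 (1.1), Gucy2c (0.11), Efr3a (0.08) and Macc1 (-0.19), and among the members for Adcy5 (0.06) and Adcy9 (0.45), with Adcy2 at 0.00; the cause was not tested. The files do not settle which deposited set carries the right sample labels. Precision is limited by 4 arrays a group and, for Adcy8, by background in the normals.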
